A study of Mus musculus with 2 samples.

Results

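The array used for this mouse lung study carries 33793 transcript clusters of its main probe category, each a set of probes summarised to 1 value. Of these, 8568 (25.4%) take their annotation from NONCODE, a catalogue of noncoding RNAs, and have no gene symbol in the authors' deposited table, and they are described here as the NONCODE-annotated clusters. Membership rests on the annotation alone and not on any measured value. The study irradiated the chest of male C57BL/6 mice, an inbred strain, with a single exposure to gamma rays at 7 weeks of age (0.81 Gy per minute), and took the lungs 25 weeks later. The other group was nonirradiated male C57BL/6 lung by its title and source name, although the labels attach the irradiation protocol to both samples. The labels describe the irradiated sample as lung that overexpressed alpha-smooth muscle actin on western blots. Each group was measured on 1 array, labelled from 300 ng of total RNA, and the total dose and the number of mice behind each array are not given in the sources used here. Since a group holds 1 array, spread between animals is unknown and nothing could be tested. Every difference below is the irradiated minus the nonirradiated log2 value and describes these 2 arrays.

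NONCODE gathers transcripts that were thought not to be translated. Long noncoding RNAs (lncRNAs) are spliced and often polyadenylated like messenger RNAs, and some act on chromatin, on neighbouring genes or as hosts of smaller RNAs. Small nucleolar RNAs (snoRNAs) are cut from the introns of host genes, many of them genes of ribosomal proteins. The box H/ACA class guides the conversion of uridine to pseudouridine and the box C/D class guides ribose methylation, mostly in ribosomal RNA, while the related scaRNAs act on spliceosomal RNAs in the Cajal bodies of the nucleus. MicroRNAs are cut from hairpins in longer transcripts and repress messenger RNAs that pair with their seed, bases 2 to 8 of the mature strand.

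The mature strands of the microRNA genes on which the results below turn are printed from RefSeq (GRCm38.p6), 5′ to 3′, with the seed in capitals. The first group shares 1 seed, that of the let-7 family, and the second group shares the seed of miR-181. The others belong to Mir5104, Mir701, Mir1931 and Mir340, which are bright, and to Mir126a and Mir490, and their values are given below.
mmu-let-7d-5p: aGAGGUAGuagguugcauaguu
mmu-let-7e-5p: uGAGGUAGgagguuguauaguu
mmu-let-7f-5p: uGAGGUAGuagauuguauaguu
mmu-miR-98-5p: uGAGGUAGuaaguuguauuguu
mmu-miR-181a-5p: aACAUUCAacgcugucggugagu
mmu-miR-181b-5p: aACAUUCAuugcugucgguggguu
mmu-miR-5104: cUGUGCUAgugagguggcucagca
mmu-miR-701-5p: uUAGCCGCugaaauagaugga
mmu-miR-1931: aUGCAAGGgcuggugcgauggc
mmu-miR-126a-3p: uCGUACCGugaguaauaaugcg
mmu-miR-490-3p: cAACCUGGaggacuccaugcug
mmu-miR-340-5p: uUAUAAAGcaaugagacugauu

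The noncoding label went against the annotation for many of the clusters. When their coordinates were set against RefSeq genes of the same build, 6893 (80.5%) shared at least 0.5 of the joined span with a gene, on the same strand where the strand was known. The largest group, 3599 clusters (42%), had the span of a protein-coding gene, 3125 of them with 0.9 or more of the span in common. LncRNA genes accounted for 2190 clusters, microRNA genes for 500, pseudogenes for 322, snoRNA and scaRNA genes for 151, immune receptor segments for 68, small nuclear RNA (snRNA) genes for 36 and other RNA genes for 27. The remaining 1675 matched no RefSeq span. The deposited annotation itself scores coding potential, and this score was above 0 for 57.4% of the clusters at protein-coding genes, for 23.0% of those at lncRNA genes and for 2.60% of those at microRNA genes. Of the clusters at protein-coding genes, 3415 lay on genes that no symbol-carrying cluster names. By name, 3411 protein-coding genes thus appear in these data only through clusters labelled noncoding, among them B2m, Bgn, Eln, Igf1, Itgb6, Pck1 and Pecam1. Symbols and synonyms were compared here, not positions. For the clusters at protein-coding genes the values are therefore described below under the gene's name. The lung label held: the surfactant gene Sftpc read 13.42 and 13.39 and the club cell gene Scgb1a1 13.41 and 13.42, and B2m, the light chain of MHC class I, had the highest deposited value of any member, 13.38 and 13.53. Others among the 10 highest were the mitochondrial leucine tRNA TrnL1 (13.17 and 13.28), Bgn, biglycan of the matrix (13.12 and 13.16), the pseudogenes Gm3699 (13.05 and 13.12) and Ubb-ps (12.96 and 13.00), the snoRNA LOC115487892 in Eif4a1 (13.00 and 12.85), and the pseudogenes Gm12671 and Gm7336, which share 1 pair of values (12.92 and 12.91).

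The NONCODE-annotated clusters as a body differed little between the arrays. Their median difference was 0.01 (-0.025 when each array was centred on its median, and -0.0021 among the brighter clusters by mean value), with quartiles of -0.13 and 0.16, and the single differences ran from -2.94 to 1.89. The median value was 6.88 without irradiation and 6.91 after it, near the medians over all main clusters (6.85 and 6.89). At least 1.5-fold higher in the irradiated array were 163 clusters and at least 1.5-fold lower were 89, together 2.94%, beside 4.71% of all main clusters (3.21% higher and 1.5% lower). Past 2-fold were 27 higher and 11 lower clusters, together 0.444%, beside 0.864% of all main clusters (0.648% higher and 0.216% lower). Clusters are termed bright where their larger value was at or above the median of its array over all main clusters. A cluster can thus be bright through either array alone, including the array in which it is higher. Of the 4468 bright members, 65 were at least 1.5-fold higher and 37 at least 1.5-fold lower, a share of 2.28% beside 3.85% of all bright main clusters (2.61% higher and 1.25% lower). Past 2-fold were 12 bright members upward and 7 downward, beside 0.834% of all bright main clusters (0.6% higher and 0.234% lower). Of the members 171 had exactly the same value on both arrays, and 181 shared both values with another member. As a measure of technical spread, the differences of 18 bacterial hybridisation controls had an SD of 0.14. Where 12 genes were covered by several members, 24 in all, the differences within a gene had a pooled SD of 0.20.

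**Figure D1:**
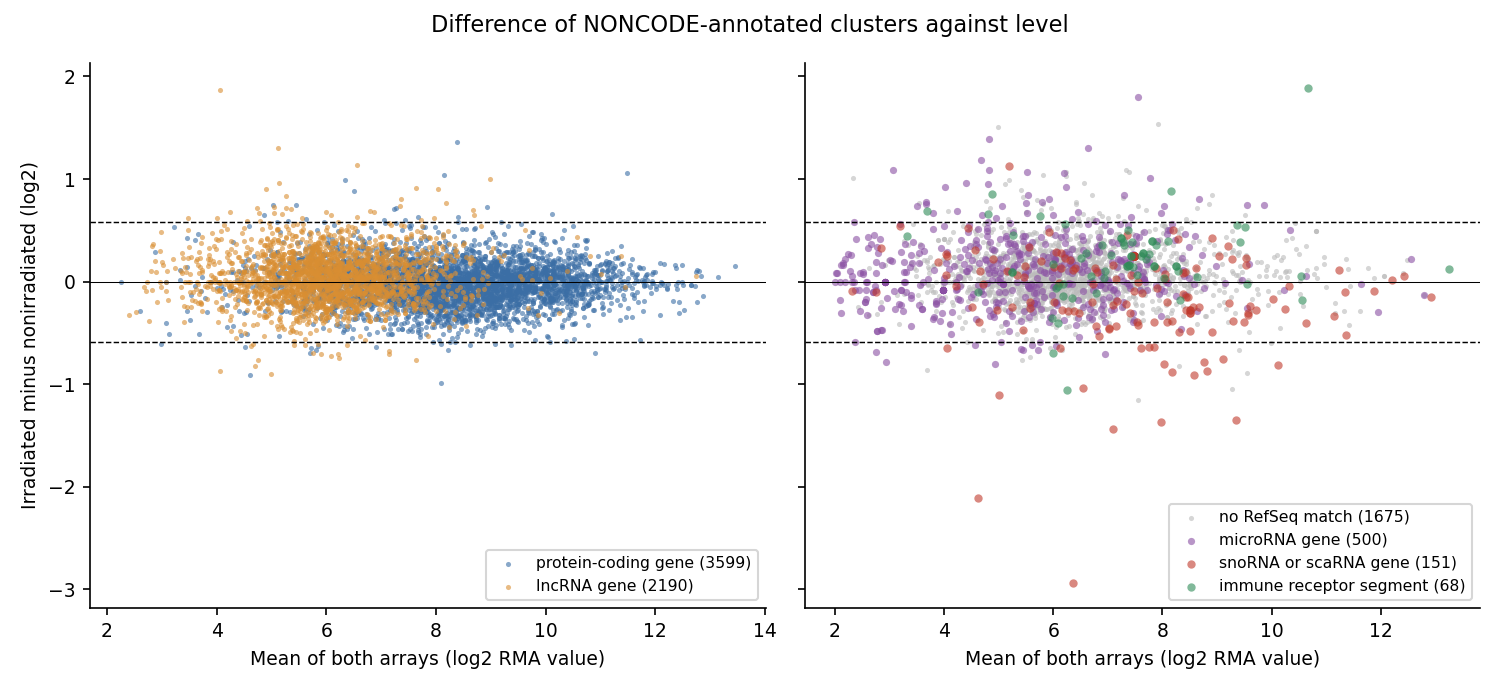
Each point is 1 NONCODE-annotated cluster at a protein-coding or lncRNA gene (left), or at a microRNA, snoRNA or scaRNA gene, an immune receptor segment or no RefSeq gene (right), with the mean of both log2 values on the horizontal axis and the irradiated minus nonirradiated difference on the vertical axis. Dashed lines mark a 1.5-fold difference. The 3599 clusters at protein-coding genes (left, blue) lie close to 0, and the largest negative differences (right, red) belong to snoRNA clusters, down to -2.94.

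The kinds of gene under the clusters differed in the size and direction of the differences. Clusters at protein-coding genes had a median difference of -0.03 and 1.03% past 1.5-fold, 18 higher and 19 lower. Clusters at lncRNA genes had a median of 0.04 and 2.37% past 1.5-fold (34 higher, 18 lower), and those without a RefSeq match a median of 0.05 and 3.46% (45 higher, 13 lower). With each array centred on its median the protein-coding median was -0.0597 and the lncRNA median 0.0042, and with the trend on level removed they were -0.0017 and 0.0169. Clusters at microRNA genes had a median of 0.08 and 10% past 1.5-fold (37 higher, 13 lower). At snoRNA and scaRNA genes the median was -0.10 and 13.2% were past 1.5-fold, 1 higher and 19 lower. The microRNA clusters are dimmer than the members as a whole (median level 5.47 against 6.89), the snoRNA and scaRNA clusters are brighter (7.49), and both have fewer probes (medians of 16 and 20 against 22). Fewer probes went with larger differences on the whole array, as given further below. Among clusters with at least 15 probes the shares past 1.5-fold were 0.862% at protein-coding genes, 2.02% at lncRNA genes, 8.90% at microRNA genes and 11% at snoRNA and scaRNA genes, beside 2.59% of all main clusters with that many probes. The array also has 5331 control rows for introns of normalisation genes, and these had a median difference of 0.27. The part of this shift in the values of clusters that lie in introns was not tested.

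**Figure D2:**
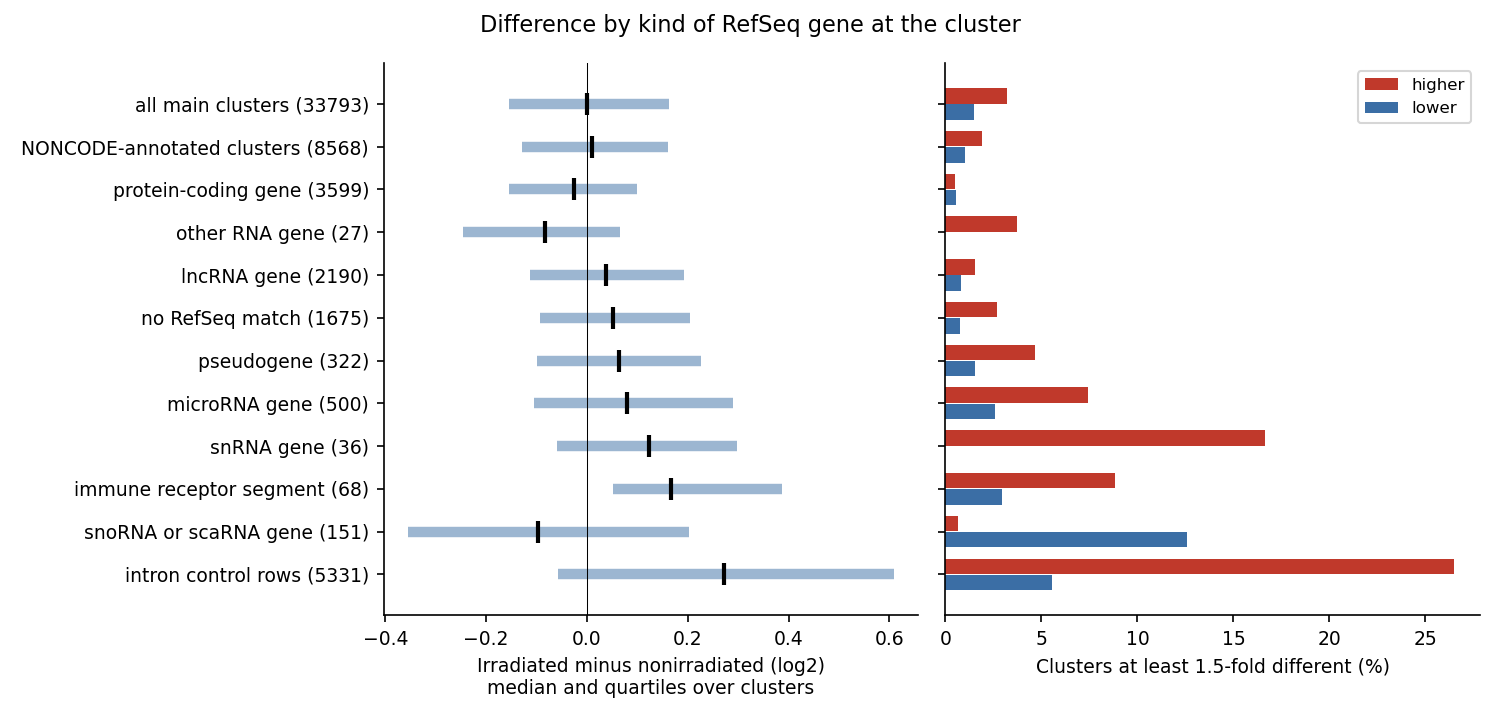
Left, median (black mark) and quartiles (bar) of the irradiated minus nonirradiated log2 difference over clusters, by the kind of RefSeq gene at the cluster, with the number of clusters in brackets. Right, the percentage of clusters at least 1.5-fold higher (red) or lower (blue) in the irradiated array. The snoRNA and scaRNA clusters have 19 lower and 1 higher call, and the intron control rows have the median farthest from 0, at 0.27.

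Among the 2988 bright clusters at protein-coding genes, 12 were at least 1.5-fold higher, beside 2.61% of all bright main clusters. The 3 with the largest differences, Pck1, Car3 and Myoz2, are known from fat and muscle. Pck1, the cytosolic phosphoenolpyruvate carboxykinase of gluconeogenesis and of glycerol synthesis in fat cells, read 7.70 without irradiation and 9.06 after it, a difference of 1.36 (2.57-fold). Car3, a carbonic anhydrase abundant in muscle and fat, read 10.96 and 12.02 (2.09-fold), and a symbol-carrying cluster on the opposite strand of the same locus differed by 0.86. Myoz2, a protein of the Z-disc of heart and slow skeletal muscle, read 7.62 and 8.67 (2.06-fold). Sln, sarcolipin, an inhibitor of the calcium pump of the sarcoplasmic reticulum, read 8.57 and 9.29, and Mlip, a lamin-binding protein of striated muscle, 6.90 and 7.62. Zfp972, a zinc finger gene, read 6.06 and 6.94 from 10 probes. Ebf2, a transcription factor of brown fat precursors, had the smallest difference of the 12, at 6.75 and 7.35.

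A group of 7 striated muscle genes, gathered after their values had been seen, was higher throughout, with a median difference of 0.58. Besides Myoz2, Sln and Mlip it held Myl4, an atrial myosin light chain (8.12 and 8.70), Myom1, a protein that crosslinks the thick filaments (6.55 and 7.08), Mylk2, the skeletal muscle myosin light chain kinase (6.43 and 6.76), and Atp2a2, the calcium pump of heart muscle and many other cells, which read 11.63 and 11.71. These differences ran beside markers of heart and fat. All 6 heart muscle markers examined (Myh6, Actc1, Tnnt2, Nppa, Pln and Tnni3) were higher in the irradiated array, with a median difference of 0.88, and ran from 8.47 to 10.72 without irradiation and from 9.40 to 11.32 after it. All 6 fat cell markers (Adipoq, Fabp4, Cidea, Ucp1, Plin1 and Lep) were higher as well, with a median of 1.39, and ran from 5.96 to 10.34 and from 7.31 to 11.82. Without irradiation, Ucp1 (5.96), Adipoq (6.35) and Cidea (6.62) lay below the median of that array over all main clusters (6.85). Ucp1 also lay below the median of the intron control rows there (6.33). The other markers lay above the array median. How much heart or fat tissue each lung sample held, and its part in the differences of Pck1, Car3, Myoz2, Sln, Mlip and Ebf2, was not tested. In bulk tissue, more cells of a type and more RNA per cell cannot be told apart.

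Other protein-coding genes at least 1.5-fold higher were seen, by name, only through these clusters. They included Igf1, a growth factor made by lung macrophages and fibroblasts (8.09 and 8.72), and B3galt2, a galactosyltransferase (6.89 and 7.59). Among them too were Art3, a member of the ADP-ribosyltransferase family (7.36 and 7.99), and Eda, the ligand of the ectodysplasin receptor (7.13 and 7.73). Ly6a2 of the Ly6 family of surface proteins read 9.78 and 10.44. Extracellular matrix genes and their proteases, gathered after their values had been seen, had 17 members with a median difference of 0.03 and none past 1.5-fold. The largest differences in this group were those of Mmp12, the macrophage elastase (7.5 and 8.03), Spp1, osteopontin (higher by 0.48 from 9.52), and Mmp11, a stromelysin, which was lower (9.17 and 8.74). A symbol-carrying cluster of Mmp11 read 7.36 and 7.48, the other direction. Col3a1, a fibrillar collagen of scar tissue, read 8.38 and 8.41, Col1a2, the second chain of type I collagen, 8.85 and 9.04, and Eln, elastin, 8.05 and 8.19. Differences of this size are near the SD of the bacterial controls. Itga6, the laminin receptor subunit, read 10.53 and 10.93, whereas Itgb6, the epithelial subunit of an integrin that activates TGF-beta, read 9.24 and 8.92, and Itgb4, the epithelial partner of Itga6, 8.50 and 8.19.

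At the other end, Clba1, which carries a clathrin-binding motif, was the bright protein-coding gene farthest down, at 8.58 and 7.59 (1.99-fold). Upk3b, a uroplakin known from the mesothelium that covers the lung, read 11.25 and 10.56 (1.61-fold). Rasef, a Rab family GTPase, read 8.55 and 7.88, Fermt1, an epithelial activator of integrins, 7.23 and 6.60, Hdc, the enzyme that makes histamine, 9.37 and 8.76, Qsox1, an oxidase that forms disulfide bonds in secreted proteins, 10.37 and 9.78, and Rsph9, a radial spoke protein of motile cilia, 8.64 and 8.06. A further 3 groups gathered after their values had been seen leaned downward. Of all clusters at protein-coding genes 43.9% were higher. In larger families the share higher was 40.3% of 62 solute carrier clusters and 58.9% of 124 zinc finger clusters. Of 17 genes of the ciliary axoneme and of transport along it, 14 were lower, with a median of -0.19 and 1 past 1.5-fold, and Dnah9, a dynein heavy chain, read 8.65 and 8.16. All 8 proteasome genes were lower, with a median of -0.24 and none past 1.5-fold, from Psmb3 (8.09 and 8.08) to the assembly factor Psmg4 (7.72 and 7.24). Of 7 loci named for ribosomal proteins, of which Rps4l is a transcribed pseudogene, 6 were lower, with a median of -0.28, and Rps18 read 6.44 and 6.04. Rpl13a read 10.33 and 10.05 through the member but 7.73 and 7.75 through a symbol-carrying cluster. Of the lung epithelial markers examined, 6 of 7 were lower, with a median of -0.14, and Foxj1, the transcription factor of ciliated cells, read 9.63 and 9.08. The part of a smaller share of ciliated cells in the ciliary genes was not tested.

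**Figure D3:**
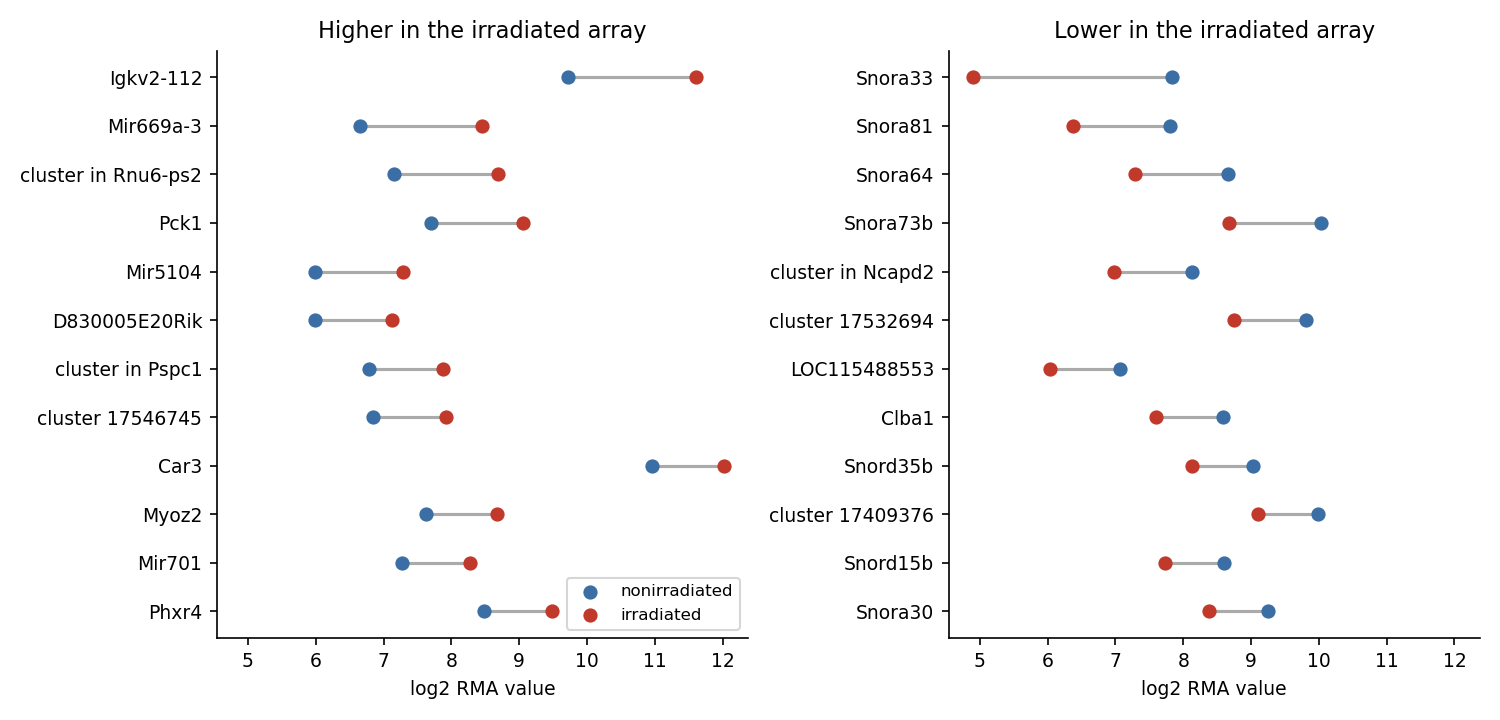
Log2 values in the nonirradiated (blue) and irradiated (red) array of the 12 bright NONCODE-annotated clusters with the largest positive difference (left) and the 12 with the largest negative difference (right). A cluster with no RefSeq match is named by the gene that holds it or by its number in the deposited table. Igkv2-112 runs from 9.72 to 11.61 and Snora33 from 7.84 down to 4.90.

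SnoRNA clusters supplied most of the largest negative differences. Of the 12 bright clusters farthest down, 8 lie at RefSeq snoRNA genes and a further 2 are classed as snoRNA by NONCODE. Snora33, an H/ACA snoRNA in an intron of the ribosomal protein gene Rps12 (chr10:23785347-23785475, minus strand, 22 probes), read 7.84 without irradiation and 4.90 after it, a difference of -2.94 (7.67-fold). Snora81 in Eif4a2, the gene of a translation initiation helicase, read 7.81 and 6.37 (2.70-fold), Snora64 in Rps2 read 8.66 and 7.29 (2.58-fold), and Snora73b, which takes part in ribosomal RNA processing, read 10.03 and 8.67 (2.55-fold). The snoRNA in Rpl30 (LOC115488553) read 7.07 and 6.03, Snord15b in Rps3 8.61 and 7.73, and Snora30 in Srcap 9.25 and 8.38. Below the brightness limit, Snora36b in Rab3gap2 read 5.69 and 3.58 (4.32-fold) and Snord70 in Nop58 5.55 and 4.45 (2.15-fold). The probes of Snora81 (14), Snora73b (15), Snora30 (10), Snora36b (15) and Snord70 (10) also match other sequences. Those of Snora33, Snora64, the snoRNA in Rpl30 and Snord15b matched unique sequence. The unmatched pair of NONCODE snoRNAs were a cluster inside Ncapd2 (8.13 and 6.98) and a cluster near Tmem167b (9.99 and 9.10).

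The lower values were not a property of all snoRNAs. Among the H/ACA clusters 8 of 30 (26.7%) were at least 1.5-fold lower, with a median of -0.31, beside 1.5% of all main clusters. Among the C/D clusters this held for 7 of 62 (11.3%), with a median of -0.10, and among the scaRNAs for 2 of 7, Scarna6 and Scarna9. Snord57 in Nop56 read 12.19 and 12.21 and Snord32a in Rpl13a 11.17 and 11.28. Snora75 in Ncl was higher, at 7.94 and 8.44. The 1 snoRNA cluster at least 1.5-fold higher was a predicted snoRNA in Uchl5 (LOC115487685, 4.62 and 5.75). A set of 16 clusters in the Snhg14 and Ipw region of the Prader-Willi domain carried 1 and the same pair of values, 7.36 and 7.61, and cannot be counted as separate measurements. With 1 cluster kept for each pair of values, 134 snoRNA and scaRNA clusters remained, with a median of -0.16 and 14.9% past 1.5-fold. Probes matched unique sequence in 78 of the 151 clusters, and these had a median of -0.20 with 11 lower and 1 higher past 1.5-fold.

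Most host genes differed less than the snoRNAs they hold. A host gene with a value of its own was found for 119 snoRNA and scaRNA clusters in 85 hosts, and the median host difference was -0.03. A host's value is the mean of its symbol-carrying clusters where it has any, and a member can read the same gene otherwise. Rpl13a differed by 0.03 as a host and by -0.28 through a member, and Taf1d by -0.11 and 0.24. Of the 18 clusters at least 1.5-fold lower with a measured host, 2 had a host past the same limit: Rps12 (9.95 and 9.02), which holds Snora33, and the noncoding host Snhg3 (9.77 and 8.54), which holds Snora73b. The other hosts in this set lay between -0.57 and 0.33. The set was chosen by the snoRNA value, so a smaller host difference partly follows from that choice. Snord100 lies in the same host as Snora33 and read 12.41 and 12.46, a difference of 0.05. Across the 119 clusters the snoRNA and host differences had a Pearson coefficient of 0.31 and a Spearman coefficient of 0.16, and without Snora33 the Pearson coefficient was 0.20. These points share both arrays, and several share a host. Total RNA was labelled, so a cluster on a snoRNA reads the mature RNA together with any host transcript that keeps the intron.

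**Figure D4:**
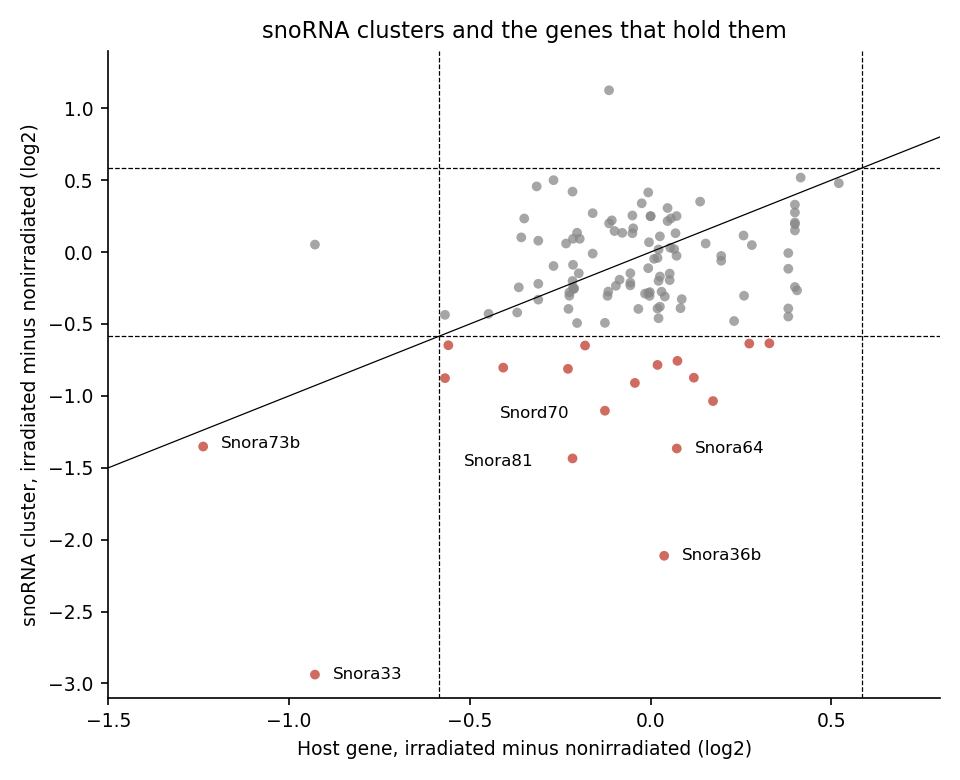
Irradiated minus nonirradiated log2 difference of 119 snoRNA and scaRNA clusters (vertical) against that of the gene that holds each (horizontal). Red points are at least 1.5-fold lower, dashed lines mark 1.5-fold, and the solid line marks equal differences. All 18 red points lie below the line, which partly follows from choosing them by their snoRNA difference. Of them 2, Snora33 and Snora73b, have a host past 1.5-fold.

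MicroRNA gene clusters leaned upward but were mostly dim. Of the 500 clusters, 425 have a mature sequence in the RefSeq table, 126 were bright, and the median mean value was 5.47. Among the bright ones 11 were at least 1.5-fold higher and 1 lower, together 9.52%, where 2.61% of all bright main clusters were higher and 1.25% lower. The brightness limit uses the compared values, so these counts partly follow from the limit. Without irradiation, Mir669a-3 and Mir5104, given next, lay below the array median (6.85) and are bright only through the irradiated array. Mir669a-3, in the Sfmbt2 cluster of rodent microRNAs, read 6.66 and 8.45, a difference of 1.80 (3.48-fold) from 9 probes that also match other sequences. Mir5104 in Zc3h12d, covered by 23 unique probes, read 5.99 and 7.29 (2.47-fold), Mir701 in Ttc28 7.27 and 8.27 (2.01-fold), and Mir1931 in Cdk17 6.88 and 7.72 (1.79-fold). Mir340 in Rnf130 was the bright microRNA cluster that was lower, at 7.30 and 6.59 (1.63-fold). Below the brightness limit, Mir126a, the endothelial microRNA in Egfl7, read 5.67 and 6.73 (2.09-fold) while its host gene differed by -0.13. Mir490, inside the muscarinic receptor gene Chrm2, read 4.13 and 5.52 (2.62-fold) with a host difference of 0.37, and Mir10a in the Hoxb cluster was lower, at 5.33 and 4.53 (1.74-fold).

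Grouped by seed, the 12 genes whose listed mature strand has the let-7 seed GAGGUAG shown above were higher in 9 cases, with a median of 0.38 and a range of -0.27 to 0.95. They include Mir1961 (2.65 and 2.48), which is named outside the family, and leave out Mirlet7a-2 (5.93 and 6.36), for which no strand was matched. Of the 12, 4 were past 1.5-fold, all higher. Over all main clusters 3.21% were that much higher, and 10% of microRNA clusters were past 1.5-fold in either direction. The 4 were Mir98 (4.33 and 5.27), Mirlet7f-1 (3.55 and 4.48), Mirlet7d (6.11 and 6.79) and Mirlet7e (6.49 and 7.08). Only Mirlet7e was bright, through the irradiated array alone. Mir98 and Mirlet7f-1 rest on 8 probes each. The probes of Mirlet7f-1, Mirlet7b, Mirlet7c-1, Mirlet7c-2 and Mirlet7f-2 also match other sequences. Mirlet7f-1 and Mirlet7d lie within 2 kb of each other on chromosome 13 on the minus strand, and Mirlet7a-1 beside them read 6.80 and 6.53. The 6 genes with the miR-181 seed ACAUUCA had a median of 0.34, and they lie in 3 pairs. Mir181a-1 (4.51 and 5.10) and Mir181b-1 (7.67 and 8.40) on chromosome 1 were higher, the latter past 1.5-fold, on 13 probes that also match other sequences. On chromosome 2, Mir181a-2 read 6.34 and 6.74 and Mir181b-2 6.15 and 6.42. On chromosome 8, Mir181c read 8.07 on both arrays and Mir181d 8.02 and 7.94. The 5 genes with the seed AAAGUGC of the miR-17 family had a median of 0.04. Microarray probes for these genes lie on the hairpin, so the values cannot tell a mature strand from its precursor or from the host transcript. The mature sequences are therefore identities of the genes, not of the RNA measured.

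Most microRNA host genes also differed less than the microRNA clusters. Across 248 microRNA clusters with a measured host, in 175 hosts, the Pearson coefficient between both differences was 0.07. Of 27 clusters at least 1.5-fold higher with a measured host, 1 had a host past the same limit. That host was Carmn, a lncRNA of smooth muscle that holds miR-143 and miR-145 and read 8.33 and 9.03 (1.62-fold), beside Mir145a at 7.12 and 7.74. The median host difference of the 27 was -0.01, but these clusters were chosen by the microRNA value. Among microRNAs known from muscle, Mir1a-1 read 3.33 and 2.55, Mir1a-2 2.29 and 2.34, Mir133a-1 3.30 and 3.44, Mir133a-2 4.26 and 4.18, Mir133b 5.73 and 5.62 and Mir206 2.18 and 2.59. The microRNAs of the cardiac myosin genes, Mir208a and Mir208b, read 3.49 and 3.79, and 2.40 and 2.83. All of these values lie below the medians of both arrays, unlike those of the heart muscle markers. Mir200b of the epithelial miR-200 family read 7.42 and 7.90 and Mir200c 5.42 and 5.09, and of the miR-34 family, known as p53 targets, Mir34a read 5.60 and 5.58, Mir34b 6.18 and 6.49 and Mir34c 3.24 and 3.62.

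Most well-known lncRNAs among the members differed little. Of 55 lncRNA genes listed from general knowledge, 29 were found among the NONCODE-annotated clusters. They had a median difference of 0.06, 19 were higher, 1 (Carmn) was at least 1.5-fold higher and none lower, beside 3.21% higher and 1.5% lower over all main clusters. Of the same list, Snhg3 is covered by a symbol-carrying cluster and was 2.36-fold lower. Malat1, an abundant nuclear lncRNA that associates with splicing speckles, read 12.71 and 12.77. Fendrr, transcribed beside Foxf1 in the mesenchyme of the lung, read 10.36 and 10.79, a difference of 0.43. Rian of the imprinted Dlk1 to Dio3 domain read 6.45 and 6.85, Dnm3os, the host of miR-199a and miR-214, 6.27 and 6.61, Kcnq1ot1, which silences an imprinted cluster, 7.97 and 8.29, and Ftx, a positive regulator of Xist, 8.21 and 8.52. H19, an imprinted lncRNA that is abundant in fetal tissue, read 5.83 and 5.92, Tug1 10.97 and 11.04, Norad, a decoy for Pumilio proteins, 9.97 and 9.86, and Hotair of the Hoxc cluster 6.39 and 6.53. Mhrt, a lncRNA from the cardiac myosin locus, read 6.09 and 6.43.

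Less studied lncRNA genes gave the larger differences. D830005E20Rik, which runs antisense through Trdn, the gene of the muscle calcium-release protein triadin, read 5.98 and 7.12 (2.20-fold), while Trdn itself differed by 0.33. Phxr4 in Maml2 read 8.49 and 9.49 (2.0-fold) and 8430431K14Rik in Prkg1, the gene of a smooth muscle protein kinase, 7.18 and 8.09 (1.88-fold), with host differences of 0.36 and 0.22. Gm16537, on the opposite strand of the glycerol-3-phosphate dehydrogenase gene Gpd1, read 6.52 and 7.20 beside a difference of 0.94 for Gpd1. Zbtb11os1 read 8.02 and 7.26 (1.69-fold) opposite Zbtb11, which differed by -0.04, and Gm38585, opposite Notch3, read 7.51 and 6.80. Below the brightness limit, Gm26611 on chromosome 9 had the largest difference of any lncRNA gene, 1.86, from 3.14 to 5.0, and rests on 8 probes. Clusters with no RefSeq match also held a few large differences: one inside Pspc1, a paraspeckle protein gene, read 6.78 and 7.87 (2.12-fold) while Pspc1 differed by 0.06, and one within the U6 pseudogene span of Rnu6-ps2 on chromosome 4 read 7.16 and 8.69 (2.89-fold) from 7 probes that also match other sequences. A cluster on an unplaced sequence (17532694, 8 probes) read 9.80 and 8.76 (2.07-fold), and a cluster on chromosome Y (17546745, 4 probes) 6.85 and 7.92 (2.10-fold).

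Further dim loci with large differences included a cluster inside Rdh13, a retinol dehydrogenase gene, at 4.23 and 5.73 (2.84-fold, 5 probes), and the lncRNA gene Gm3428 at 4.47 and 5.77 (2.47-fold). Downward were the pseudogene BC052688 at 4.02 and 2.82 (2.30-fold) and Skint10, of a family expressed in skin and thymus, at 5.07 and 4.15 (1.88-fold). All of these lie below the medians of both arrays and rest on 5 to 13 probes.

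Imprinted and developmental loci were examined by their coordinates. The Dlk1 to Dio3 domain on chromosome 12 held 60 members, 39 of them higher, with a median of 0.18, values from 1.98 to 9.06, and 9 bright clusters. Its 46 microRNA clusters had a median of 0.14, with Mir758 (6.04 and 6.64) past 1.5-fold upward and Mir3070a (5.92 and 5.30) downward, and the snoRNA AF357341 read 4.38 and 3.73. Between Snrpn and Ube3a on chromosome 7, 22 members carried only 7 distinct pairs of values. In the Hoxa cluster 5 of 7 members were higher, with a cluster in Hoxaas3 at 7.74 and 8.15, Gm15050 at 6.45 and 6.80 and Hoxa10 at 5.33 and 5.05. The Hoxb members had a median of -0.06 and the Hoxd members 0.08, and Hoxc held 3, of which Mir196a-2 read 5.33 and 4.75. Stambpl1, a deubiquitinase gene beside Acta2, the alpha-smooth muscle actin gene, read 9.04 and 9.19, where Acta2 differed by 0.65.

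Small nuclear RNA genes had 36 members with a median of 0.12, 6 at least 1.5-fold higher (16.7%, beside 3.21% of all main clusters) and none lower, and 21 of the 36 were bright. Many of them share values: the 21 with at least 15 probes hold 10 distinct pairs. The bright one past the limit, LOC115489348 in Dennd5b, read 8.67 and 9.41 from 9 probes that also match other sequences, and the dim Gm22573 read 2.11 and 3.11. Rn7sk, the 7SK RNA that holds back transcription elongation, read 13.35 and 13.42. The block of rodent microRNAs inside Sfmbt2 held 38 members but 18 distinct pairs of values, and 35 of the members rest on probes that match several sequences. In that block 6 (15.8%) were at least 1.5-fold higher and none lower, beside 3.21% higher and 1.5% lower over all main clusters. Of all microRNA clusters 10% were past 1.5-fold. The 6 include Mir669a-3 and the dim Mir669g (4.09 and 5.27), while Sfmbt2 differed by -0.13. Only 1 of the 38 was bright, and their median level was 3.99.

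Of the kinds of RefSeq gene, segments of immune receptors had the highest share above 0. Of 68 clusters 54 (79.4%) were higher, beside 48.7% of all main clusters, with a median of 0.17. At least 1.5-fold higher were 6 and lower 2, where 3.21% and 1.5% of all main clusters were so. Igkv2-112, a variable segment of the immunoglobulin kappa light chain (chr6:68219981-68220706, plus strand, 9 probes), had the largest positive difference of all NONCODE-annotated clusters, from 9.72 to 11.61 (3.70-fold). The other segments of the locus differed less: Igkv4-73 read 9.09 and 9.65, and Igkc, the constant region, 13.19 and 13.31. T cell receptor alpha and delta segments numbered 50, of which 41 were higher with a median of 0.19. All 32 bright ones were higher, by 0.04 to 0.89, but they hold 24 distinct pairs of values. The brightness limit uses the compared values, so this count partly follows from the limit. Trav1 (6.71 and 7.06) is bright only through the irradiated array, and Traj57 (6.83 and 6.73) falls just short in both. Traj43, a joining segment, read 7.71 and 8.60 and Traj42, the neighbouring segment, 6.79 and 5.73, so adjacent segments were 1.85-fold higher and 2.08-fold lower, on 8 and 15 probes. Of the blood and immune markers, Ptprc differed by 0.04, Cd3e by 0.15 and Cd79a by 0.29, Igj, which links antibody subunits, by 0.63, and Ppbp, a platelet chemokine, by 0.70. The part of differing numbers of lymphocytes and plasma cells was not tested.

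The spread of differences followed probe number and level. Of members with under 10 probes 14.7% were past 1.5-fold, of those with 10 to 14 probes 9.30%, with 15 to 24 probes 2.64% and with 25 or more 1.22%. The corresponding shares of all other main clusters were 16.6%, 11.3%, 3.51% and 1.53%. By quartile of the mean value over all main clusters, the members past 1.5-fold made up 5.50%, 2.79%, 2.33% and 1.65% from the lowest to the top quartile, and the other clusters 8.85%, 4.25%, 4.66% and 3.21%. The share of the members lay below that of the other clusters in each of these 8 classes, which was not tested. It did not in every joint class of level and probe number: in the lowest quartile with under 10 probes it was 22.1% for the members and 17.5% for the others, with 10 to 14 probes 13.6% and 11.7%, and with 25 or more 2.35% and 1.62%, and in the top quartile with under 10 probes 14.6% and 13.2%. The members had a median of 22 probes. The 4255 Ensembl-annotated clusters without a symbol had a median of 12 probes and a median level of 5.21, and 12.7% of them were past 1.5-fold.

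**Figure D5:**
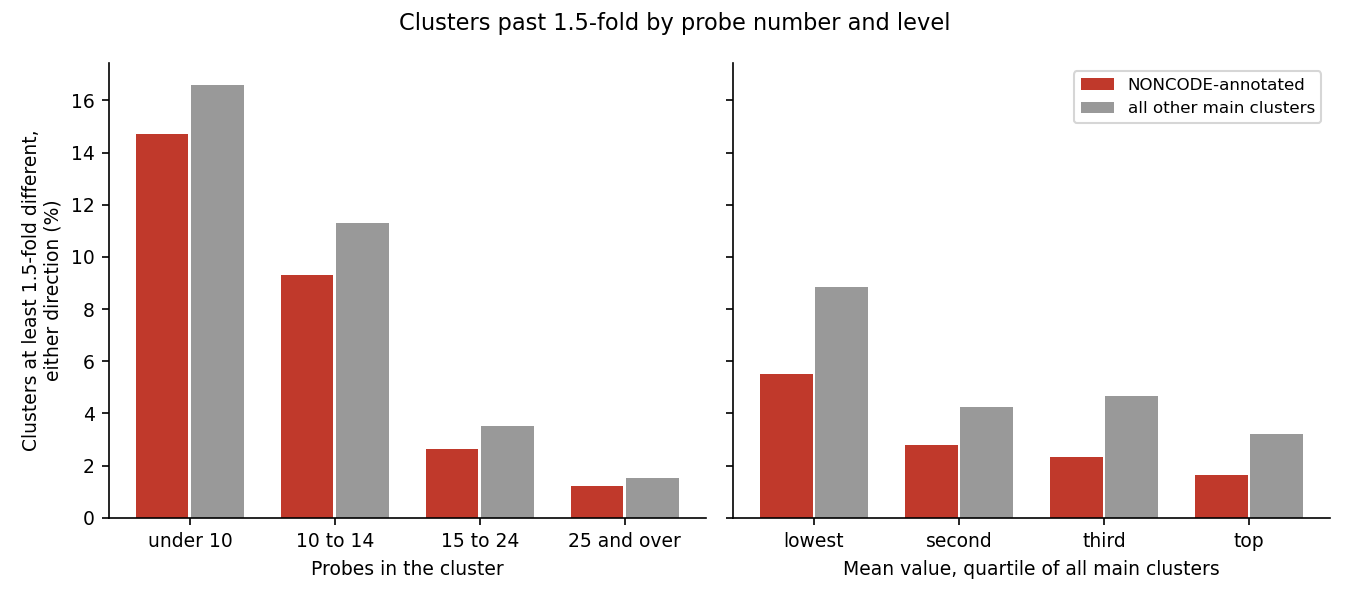
Percentage of clusters at least 1.5-fold different in either direction, by number of probes in the cluster (left) and by quartile of the mean log2 value over all main clusters (right), for the NONCODE-annotated clusters (red) and all other main clusters (grey). Under 10 probes the shares are 14.7% and 16.6%, and with 25 or more they are 1.22% and 1.53%.

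Short loci differed more than long ones. Under 500 bases between start and stop, 11% of 898 members were past 1.5-fold, with a median difference of 0.06, and the share went down through 4.04%, 2.41% and 1.70% to 1.04% of the 1545 members of 50000 bases and over. The microRNA, snoRNA and snRNA genes are short, and the part of length itself in their shares was not tested. Probes that also match other sequences covered 672 members, of which 6.25% were past 1.5-fold, beside 2.66% of the 7896 members with unique probes. Among the autosomes the share past 1.5-fold ran from 1.27% of 236 members on chromosome 19 to 5.06% of 474 on chromosome 1. All 12 members on chromosome Y were higher, but they hold 7 distinct pairs of values, 10 of them rest on probes that match several sequences, and the 2 with unique probes were Uty, a histone demethylase gene (9.30 and 9.50), and Tspy-ps (3.55 and 3.73). Of the 270 other main clusters on chromosome Y, 37.4% were higher.

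Differences of neighbouring loci were nearly unrelated. For 635 members that overlap a symbol-carrying cluster on the same strand, the Pearson coefficient with that cluster's difference was 0.09 (Spearman 0.07), for 1930 with an overlap on the opposite strand only 0.06 (0.07), for 2504 within 10000 bases 0.12 (0.09), and for 3499 farther away 0.04 (0.04). Where both clusters were bright, the coefficients were 0.18, 0.12, 0.17 and 0.11 over 239, 651, 1207 and 1067 pairs. These are descriptions across loci that share both arrays. The closest check on a single difference came from 92 genes measured both by a member and by a symbol-carrying cluster. They were paired by gene symbol and not by strand. Their differences had a Pearson coefficient of 0.32 and a Spearman coefficient of 0.16, and the gap between both readings of a gene had an SD of 0.29. Serpine2, an inhibitor of serine proteases, read 9.62 and 9.65 through the member and 6.79 and 6.70 through the other cluster. The gap holds the spread of both clusters, so its SD is not the error of a single difference. Some pairs read at unlike levels, as Plagl1 did at 9.40 and 9.28 through the member and 2.87 and 2.97 through the other cluster. In the 39 pairs with both clusters bright, the coefficients were 0.41 and 0.09 and the SD of the gap was 0.30. Car3 had the largest member difference of all pairs (1.06, beside 0.86), and its symbol-carrying cluster lies on the opposite strand. The coefficients without Car3 were not computed.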

How the data were processed

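Total RNA of mouse lung was hybridised to 1 gene-level Affymetrix array for each of the 2 groups. The deposited values are log2 signals that the authors summarised with RMA. The submitters' processing notes name Affymetrix Expression Console, version 1.3.1, and coordinates are on GRCm38. The deposited table also holds the authors' number of probes per cluster, NONCODE class and cross-hybridisation type. No detection call was used.

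The difference is the irradiated minus the nonirradiated deposited log2 value, and a fold is 2 raised to its size. No normalisation was added and no test was possible. Clusters were matched to RefSeq genes of GRCm38.p6 when the shared part of the joined span was 0.5 or more, on the same strand where the RefSeq tables gave one. MicroRNA sequences are RefSeq's. A host is the smallest larger gene that holds the cluster, and neighbours lie within 10000 bases. The naming rule takes the 12 bright clusters with the largest difference in each direction, 5 dim ones in each direction, the 10 highest, up to 4 per listed locus and up to 2 near listed genes. A few values that this rule takes are not reported here. Other genes, and the families, were picked with their values in view. The members and lists were chosen with earlier results of these data known. Foxl1 was left out of the lncRNA list, since it codes for a protein. GC and repeat content were planned but not run, since no genome was used here. Alternatives were array centring, a trend correction, the brightness limit and filters on probes and overlaps. Python 3.11.15, numpy 2.4.6, pandas 2.3.3, scipy 1.17.1 and statsmodels 0.14.6 were used, and the counting was tested on simulated data.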

Additional observations from a re-analysis of the deposited data

How the results depend on the processing

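No paired analysis was possible because each group has 1 array. Of 70 alternatives over 8 main results, 56 kept the value within a tolerance, 12 moved it and 2 turned its sign. The tolerance was a factor of 1.5 for a count and a 95% interval for the median and for the share. The series table holds the same values, so that alternative could not differ. With members limited to those whose mean value reached the median of all main clusters, 52 were at least 1.5-fold higher and 35 lower, 10 were at least 2-fold higher and 5 lower, and the median difference was -0.0021. With unique probes only, 17 were at least 2-fold higher and 7 lower. Without clusters that overlap a symbol-carrying cluster on the same strand, 4 were at least 2-fold lower and 43 bright ones at least 1.5-fold higher. With the bright limit at the 75th percentile, 25 bright clusters were at least 1.5-fold higher and 19 lower. Centring each array on its median shifted all differences by 0.03, gave a median of -0.025, and took the share higher among members past 1.5-fold from 64.7% to 58.3%. Without clusters at protein-coding spans, an alternative added after the data were seen, the median was 0.0438. These filters leave fewer clusters by construction, and the cause of the other shifts was not tested. Centring and the removal of a trend with level, also added later for these groups, gave medians of -0.0597 and -0.0017 at protein-coding genes and of 0.0042 and 0.0169 at lncRNA genes. The medians at snoRNA and at microRNA genes kept their sign under centring, the trend, the probe minimum and unique probes. The 154 clusters taken by the naming rule and related lists all kept their direction under centring and the trend. The values of the series table are the same values. Not every cluster given above is among the 154. A positive difference smaller than the centring shift of 0.03, as that of Snord57 (0.018), turns its sign under centring.

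With 1 array per group no value has a replicate error, and the number of arrays limits the precision. Of the members 40.8% lay below the median level of the intron control rows, and no detection call was used, so the differences of dim clusters are the least certain. Probes that match several sequences, shared values and few probes touch many of the small RNA clusters named.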
